A study of Mus musculus with 18 samples.

Results

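Integrins are the transmembrane receptors by which cells hold on to extracellular matrix, and the focal adhesion core is the set of cytoplasmic proteins that ties them to actin. The 44 genes described here are 18 alpha subunits, 8 beta subunits and 18 proteins of the adhesion plaque: talins and kindlins, which bind the beta tail and switch the receptor on, the complex of ILK, PINCH and parvin, the actin linkers vinculin, zyxin and tensin, and the kinases and scaffolds FAK, Pyk2, paxillin and p130Cas. They were taken by symbol from a table of 28856 transcript clusters, the array's unit for a gene, of which 25254 carry a symbol, and each gene was read from its cluster of highest mean signal.

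The table holds signals of 18 microarrays of the Affymetrix Mouse Gene ST type, with 3 in every one of the 6 groups and all mice at 5 weeks of age. Glomeruli of *Cd2ap* mutant mice (line B6.129X1-Cd2ap tm1Shaw/J, labelled CD2AP-/-) and of wild type mice were dissociated, and GFP positive cells were sorted with a transgene reporter for each cell type, among them *Meis1-GFP* for mesangial cells and *Tie2-GFP* for endothelial cells. CD2AP is an adapter protein of the podocyte slit diaphragm, its loss in mice is known to cause nephrotic syndrome and glomerulosclerosis, and the mutant allele is carried by every cell of the animal. The series record calls the replicates biological triplicates but does not say whether animals were pooled, and the letters A, B and C name the 3 arrays of a group without any order. The labels give wild type for all 3 control groups, though the sample titles of the mesangial ones read control. The column headings of the mesangial controls read +:- where those of the podocyte and endothelial controls carry 2 plus signs. The sources used here do not settle if the mesangial controls were heterozygous.

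An integrin is a pair of 1 alpha and 1 beta subunit, and the alpha subunit largely sets the ligand. The alpha subunits alpha1, alpha2, alpha10 and alpha11 bind collagen, alpha3, alpha6 and alpha7 bind laminin, alpha5, alpha8, alphav and alphaIIb bind proteins with an RGD motif such as fibronectin, and alpha4 and alpha9 bind fibronectin and cell surface ligands such as VCAM-1. In the glomerulus, alpha3beta1 anchors the podocyte foot process to laminin of the basement membrane, and alpha8beta1 is the integrin for which the mesangial cell is known.

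The sorted cells carried the markers of their type: all 11 podocyte markers had a signal of at least 100 in each podocyte array, all 10 endothelial markers in each endothelial array and 8 of 9 mesangial markers in each mesangial array. Podocyte arrays also carried signal of the other types: the 9 mesangial markers summed to 3122 to 3642 in wild type podocyte arrays, with 8 to 9 of 9 at 100 or above, and to 1298 to 3887 in mutant ones, with 6 to 7 of 9. The 10 endothelial markers summed to 4625 to 6117 in wild type podocyte arrays and 938 to 2845 in mutant ones, and both sums were lowest in mutant podocyte array C. Wild type mesangial array C stood apart from the other mesangial arrays, with podocyte markers summing to 4342 against 1157 to 1379 in the other 5 and endothelial markers to 8082 against 2392 to 2929. The 8 tubule markers summed to 1857 in that array against 453 to 476 in the other 5. *Cd2ap* itself was not called lower in any cell type: its log2 fold change was -0.31 in mesangial cells (adjusted p = 0.151), -0.23 in podocytes (adjusted p = 0.504) and 0.18 in endothelial cells (adjusted p = 0.336, all from limma), so every direction below rests on the deposited labels. *Xist* was under 100 in 6 of the 18 arrays, 2 of the mutant and none of the wild type endothelial arrays, 2 of the wild type and none of the mutant mesangial arrays, and 1 podocyte array of each genotype.

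Of the 44 genes, 28 had a signal of at least 100, the minimum used for testing, in at least 1 array, and 15 of them in all 18. The other 16 stayed below 100 throughout and were not tested between cell types, with signals from 27.1 to 91.8 where array medians were 62.8 to 71.6. These were the collagen receptors *Itga10* and *Itga11*, the laminin receptor *Itga7*, the platelet subunit *Itga2b*, all 5 leukocyte alpha subunits (*Itgad*, *Itgae*, *Itgal*, *Itgam* and *Itgax*), *Itgb2*, the partner of most of them, the epithelial *Itgb6*, the lymphocyte *Itgb7*, *Tln2*, *Fermt1*, *Fermt3* and *Ptk2b*. The highest of these values was that of *Itga11*, and *Itgam*, the alpha subunit of macrophages and neutrophils, ranged from 33.1 to 44.8. On an array such values are near background, and absence of the transcript was not shown.

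In wild type arrays 11 of the 14 integrin subunits tested were called in at least 1 pair of the 3 cell types, and 7 of the 14 plaque genes, where 28.7% of all transcript clusters were. The difference between the subunits and the plaque genes was not tested. Between cell types, called means an adjusted p under 0.05 by limma over all 13523 transcript clusters tested, with a fold change over 1.5. SE is the standard error of the limma fit, and SD the spread over 3 arrays. Podocytes were higher than mesangial cells for 6 of the 28 genes and lower for 8, where 5.49% and 8.33% of all transcript clusters were called in those directions. Podocytes were higher than endothelial cells for 11 and lower for 5, against 9.15% and 10.8% of all clusters. Mesangial cells were higher than endothelial cells for 7 and lower for 3, against 8.84% and 7.37%. Where the dimmer cell type lay below 100 in all 3 wild type arrays, as for *Itga1*, *Itga4*, *Itga8* and *Itgb8* in endothelial cells, *Itga2* in mesangial and endothelial cells, *Parvb* in mesangial cells and podocytes and *Itga5* in podocytes, a fitted difference is set against near-background signals and its size is not exact. The genes were chosen for their roles and with earlier results known, so these shares describe them and carry no test of the list.

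The mesangial repertoire was marked by 3 alpha subunits. *Itga8* (transcript cluster 10480090), the RGD receptor of mesangial cells, had wild type signals of 2892, 3126 and 2904 in mesangial arrays, 1153, 1152 and 869 in podocyte arrays and 96.4, 61.3 and 61.6 in endothelial arrays. The mesangial arrays lay above all podocyte arrays, with a log2 difference podocyte minus mesangial of -1.50 (SE 0.40, adjusted p = 0.0125), and the endothelial arrays were near background. The call between mesangial cells and podocytes was lost without podocyte wild type array C (adjusted p = 0.056 by limma). *Itga4* (transcript cluster 10473125) followed the same order, with 1588, 1622 and 1394 in mesangial, 562, 353 and 442 in podocyte and 59, 53.2 and 55.6 in endothelial arrays. The collagen receptor *Itga1* (transcript cluster 10412298) had 1060.3, 983 and 793 in mesangial, 336, 194 and 198 in podocyte and 93.2, 64.6 and 70.9 in endothelial arrays. For *Itga4* and *Itga1* all 3 differences between cell types were called, and no wild type array of one type overlapped another. *Itga9*, the relative of *Itga4*, had 555 ± 17.1 in mesangial, 347 ± 19.9 in endothelial and 217 ± 30.1 in podocyte arrays (mean ± SD, n = 3 each); podocyte minus mesangial was -1.36 on the log2 scale (adjusted p = 0.00186), while neighbouring types in that order did not overlap but were not called.

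The podocyte repertoire held 5 subunits with their highest wild type signal in this cell type. *Itgb8* (transcript cluster 10403229), which pairs with alphav and binds latent TGF-beta, had 967, 722 and 939.5 in podocyte arrays, 61.1, 47.6 and 127 in mesangial arrays and 50.4, 50.6 and 57.3 in endothelial arrays, with a fitted log2 difference of 3.60 (SE 0.28, adjusted p = 1.45e-07) against mesangial cells, 2 of whose 3 arrays were below 100. *Itga2* (transcript cluster 10412267), a collagen receptor, had 340.4, 224 and 290.3 in podocytes and stayed between 50.1 and 70.2 in the 6 other wild type arrays. Both subunits were therefore near background outside podocyte arrays, except that mesangial array C reached 127 for *Itgb8*. *Itga3* (transcript cluster 10390117), the laminin receptor of the foot process, had 634, 600.0 and 673 in podocytes, 239.6, 236 and 212 in mesangial cells and 275, 229 and 212 in endothelial cells. It was 2.77-fold higher in podocytes than in mesangial cells (log2 difference 1.47, adjusted p = 5.24e-06), and the mesangial and endothelial arrays overlapped. *Itgb5*, a vitronectin receptor subunit, had 1359 ± 188 in podocytes against 282 ± 68.9 in mesangial and 194 ± 22.9 in endothelial cells (mean ± SD, n = 3 each). *Itgav*, the common partner of beta3, beta5 and beta8, ordered podocyte, mesangial, endothelial with 1187 ± 117, 591 ± 58.3 and 156 ± 15.9, each step being called.

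Endothelial cells were set apart by *Itga6* (transcript cluster 10472820), a laminin receptor, with signals of 1265, 1103 and 952 against 219.6, 252 and 220.3 in podocytes and 65.4, 86.2 and 315 in mesangial cells. All endothelial arrays lay above the rest, and podocyte and mesangial arrays overlapped because of mesangial array C. *Parvb*, a parvin that links ILK to actin, had 214 ± 46.5 in endothelial arrays and no more than 96.9 in any mesangial or podocyte wild type array. The other parvin, *Parva*, ran the other way, at 1430.2 ± 151 in podocytes, 886 ± 20.1 in mesangial and 277 ± 48.4 in endothelial cells, all 3 differences being called. The fibronectin receptor *Itga5* had 135 ± 6.1 in endothelial arrays and was at most 103 in all mesangial and podocyte wild type arrays, with only the step to podocytes past the fold threshold.

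**Figure D1:**
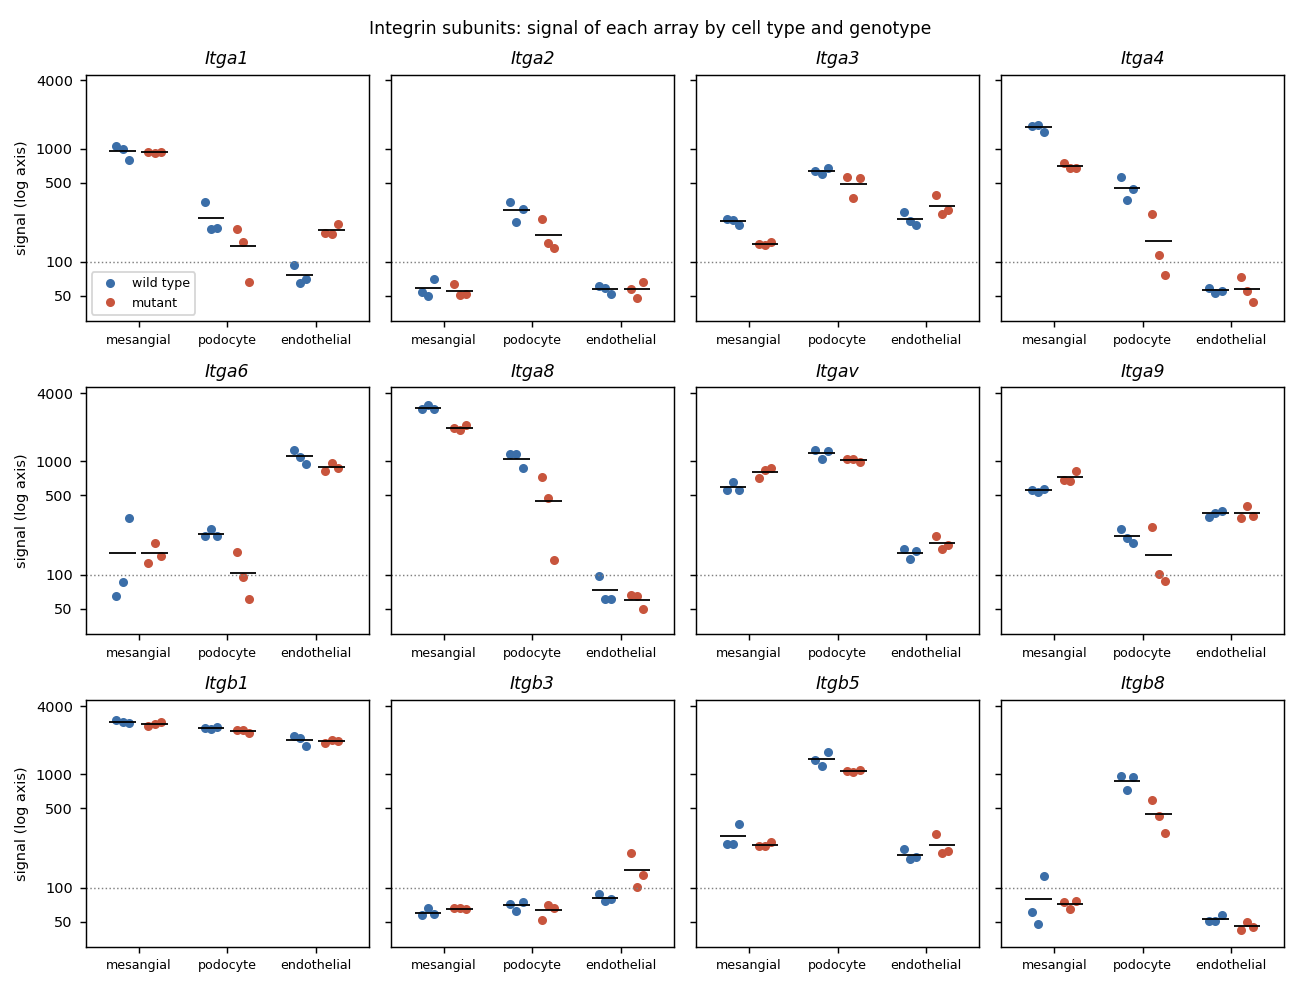
Signal of 12 integrin subunits in each of the 18 arrays, on a log axis, by cell type (horizontal) and genotype (blue wild type, red mutant). Points are arrays, black bars are means of 3 arrays, and the dotted line is the signal minimum of 100; *Itgb1* is bright in all 3 cell types, while *Itga8*, *Itga4*, *Itgb8* and *Itga6* separate them.

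The common partner of most of these alpha subunits, *Itgb1* (transcript cluster 10576661), varied little. Its wild type signals were 2994, 2884 and 2833 in mesangial cells, 2570.3, 2512 and 2619 in podocytes and 2175, 2072 and 1777 in endothelial cells. Endothelial cells were lower than mesangial cells by an adjusted p of 1.32e-04 (0.54 on the log2 scale, mesangial minus endothelial), short of 1.5-fold, and podocytes and mesangial cells were not called apart (adjusted p = 0.141). *Itgb4*, whose cluster also carries the symbol *Galk1*, had 123 ± 8.96, 119 ± 5.63 and 117 ± 8.11 in endothelial, mesangial and podocyte arrays, with no call, and *Itgb3* stayed under 100 in all wild type arrays. Cluster 10382713, which carries *Itgb4* alone, had wild type means of 73.9, 63.9 and 74.9 in the same order of cell types. *Itgb4* thus counts as reaching 100 through a cluster shared with another gene.

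Of the 14 plaque genes tested, 7 were called in no pair of cell types. *Tln1*, the talin that activates integrins, had 288 ± 10.7 in mesangial, 227 ± 2.93 in podocyte and 213 ± 16.1 in endothelial arrays, and *Fermt2*, kindlin-2, had 1461 ± 151, 1169.9 ± 85 and 1054 ± 127 in the same order. *Ilk*, read from a cluster it shares with *Taf10*, had 453 ± 25.5, 468 ± 31 and 519 ± 35.7, and *Lims1*, PINCH1, had 365 ± 1.61, 342 ± 31.8 and 314 ± 25. The 2 *Ilk* clusters disagreed: cluster 10556005, which carries *Ilk* alone, had wild type means of 357, 318 and 263, lowest in endothelial cells. None of these 4 passed both limits in any pair (*Tln1* and *Fermt2* had adjusted p = 5.90e-04 and 0.00445 between mesangial and endothelial cells, below the fold limit), and neither were *Zyx* (174 ± 32.1, 131 ± 4.56 and 122 ± 21.6), *Pxn* (103 ± 3.39, 129 ± 9.19 and 135 ± 2.95) and *Bcar1* (179.9 ± 12.7, 176 ± 19.97 and 179.6 ± 18). The other 7 differed, among them 3 actin linkers. *Vcl*, vinculin, had 2189.8, 2006 and 1688 in mesangial, 871, 655 and 596 in podocyte and 309.9, 275 and 191 in endothelial arrays, with all 3 differences called. *Tns3* had 1128 ± 168, 547 ± 44.2 and 253 ± 30.9 in the same order, all called. *Tns1*, by its brightest cluster, had 769 ± 52.5, 292 ± 79.3 and 591 ± 144, lower in podocytes than in both other types. Its 6 clusters disagreed: cluster 10355528 had wild type means of 382, 484 and 422 in the same order, highest in podocytes. *Ptk2*, which encodes FAK, was also lowest in podocytes, at 274 ± 30.4 against 453 ± 59.7 in mesangial and 591 ± 86.1 in endothelial cells, and *Lims2*, PINCH2, whose cluster also carries *Gpr17*, had 199 ± 25.7 in endothelial, 140.1 ± 9.01 in podocyte and 96 ± 19 in mesangial arrays.

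**Figure D2:**
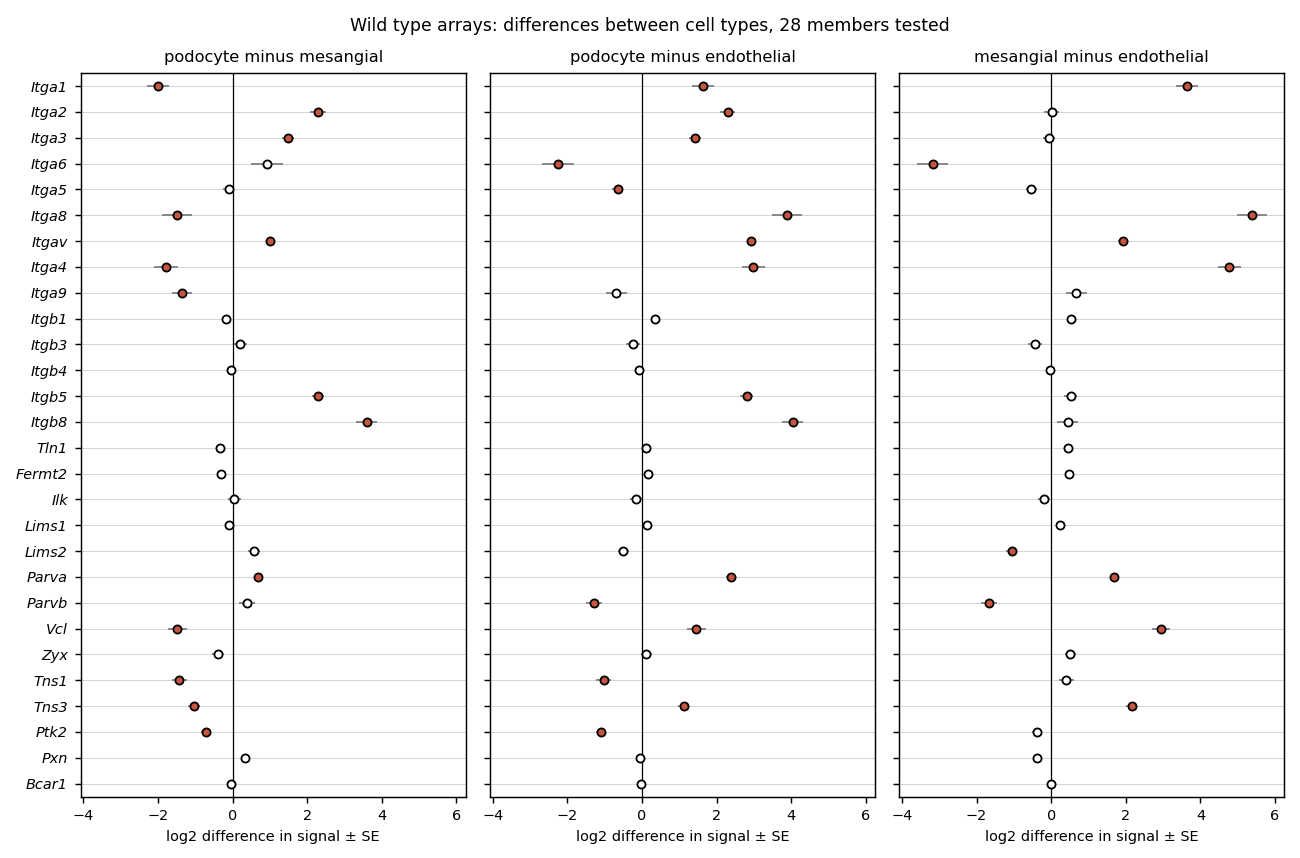
Log2 differences in signal between cell types in wild type arrays (points) with standard errors from the limma fit over 18 arrays (bars), for the 28 genes tested. Filled points have a fold change over 1.5 at an adjusted p under 0.05; the alpha subunits spread most widely in the mesangial minus endothelial panel, where *Itga8*, *Itga4* and *Itga1* are set against endothelial signals below 100, while *Bcar1* stays near 0 in all 3 panels and *Tln1* and *Fermt2* reach 0.44 and 0.47 in the mesangial minus endothelial panel, short of 1.5-fold.

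Within mesangial cells the comparison of genotypes asks which adhesion genes differ in the diseased glomerulus, and 3 alpha subunits fell in arrays labelled mutant. Genotypes were read at a pair of thresholds. The screen is an unadjusted p under 0.05 with a fold change over 1.5, after the p limit of the study's methods, which do not say whether p was adjusted, and a fold limit it used for these arrays. The stricter one, which alone is described as a rise or fall, is an adjusted p under 0.05 over all clusters tested. Of 25 genes tested, 3 passed the adjusted p, a share of 12% against 2.92% of all clusters. The screen called the same 3 lower and 1 gene, *Zyx*, higher, where 3.12% of all clusters were called lower and 2.08% higher. With all 18 arrays in 1 fit the adjusted calls were *Zyx* and *Itga3*, with *Itga4* at an adjusted p of 0.052 and *Itga8* at 0.469. The share of 2.92% comes from the fit of the mesangial arrays alone and is no background for these calls. Over the alternative settings, left-out arrays apart, 1 to 729 of all clusters passed the adjusted p in mesangial cells. The median log2 fold change of the 25 genes was -0.07, beside -0.02 over all clusters, and 15 of the 25 were below 0. Without overlap between groups, 8 of the 25 were lower and 4 higher, beside 16.3% and 12.3% of all clusters.

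*Itga4*, which binds fibronectin and VCAM-1, had mesangial signals of 747, 672 and 671 in arrays labelled mutant and 1588, 1622 and 1394 in wild type arrays. The groups did not overlap, and *Itga4* fell 2.20-fold, a log2 change of -1.14 (SE 0.10, adjusted p = 0.00492). *Itga8* had 1975, 1886 and 2080.5 against 2892, 3126 and 2904, again without overlap, a log2 change of -0.59 (SE 0.08, adjusted p = 0.0235). *Itga3* had 143, 140.3 and 151 against 239.6, 236 and 212, a log2 change of -0.66 (SE 0.09, adjusted p = 0.0179). A fibronectin and VCAM-1 receptor, an RGD receptor and a laminin receptor were lower in the same 3 mutant arrays, while their common beta partner did not pass either threshold: *Itgb1* had 2663, 2757 and 2894 against 2994, 2884 and 2833, a log2 change of -0.07 (SE 0.08, adjusted p = 0.656). *Itga4* kept an adjusted p under 0.05 with each of the 6 arrays left out (at most 0.0343), whereas *Itga3* and *Itga8* lost it when any mutant array or wild type array A or B was left out (up to 0.0861 and 0.0957) and kept it without wild type array C, the array with podocyte and endothelial marker signal, where *Itga6* and *Tns3* also passed the screen. *Xist* signal differed between these arrays, and with it as a covariate the adjusted p was 0.0815 for *Itga4*, 0.172 for *Itga3* and 0.256 for *Itga8*, with log2 fold changes of -1.19, -0.73 and -0.55.

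The mesangial arrays labelled mutant also differed in markers: the 9 mesangial markers summed to 7218 to 8366 against 8255 to 8975 in wild type arrays, with 8 and 8 of 9 at 100 or above, and the 5 markers of smooth muscle and juxtaglomerular cells to 1592 to 2892 against 1326 to 1609. Of the 9 mesangial markers, 4 lay lower in the mutant arrays without overlap (*Pdgfrb*, *Gata3*, *Des* and *Agtr1a*) and 3 higher (*Rgs5*, *Meis1* and *Notch3*). *Pdgfrb* had 1188, 988 and 1038 against 1481, 1706 and 1599. *Rgs5* had 3062, 2676 and 2518 against 2319, 2229 and 2199. The 14 leukocyte markers summed to 2295 to 3943 in mutant and 1721 to 3215 in wild type mesangial arrays. The highest sums were those of mutant array B and wild type array C. Of these 14, 0 were higher and 0 lower without overlap. Fewer cells of a type and less RNA per cell cannot be told apart in bulk arrays, and the part of these markers in the lower integrin signals was not tested.

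*Zyx*, zyxin, a LIM protein of mature adhesions under tension, was the member that passed the screen as higher in mesangial cells. Its signals were 256, 326 and 358 in arrays labelled mutant and 165, 209.9 and 148 in wild type arrays, without overlap, a log2 change of 0.85 (SE 0.17, adjusted p = 0.0587), short of the adjusted threshold. Other plaque genes did not pass either threshold: *Vcl* had 1511, 1528 and 1469 against 2189.8, 2006 and 1688 (log2 change -0.38, adjusted p = 0.127) and *Tns3* 925, 874 and 649 against 1273, 1168 and 943 (log2 change -0.47, adjusted p = 0.182). *Itgav* at 0.45 (adjusted p = 0.098) and *Itga9* at 0.38 (adjusted p = 0.107), both on the log2 scale, had mutant arrays above all wild type arrays, without passing. *Itga1*, bright in this cell type, had 926, 922 and 935 against 1060.3, 983 and 793 and overlapping groups. *Itga6* had 128, 192 and 145 against 65.4, 86.2 and 315, the last value being that of wild type array C. The remaining members tested in mesangial cells, none past a threshold, lay between -0.24 for *Ilk* and 0.20 for *Bcar1* on the log2 scale. By its other cluster, 10556005, *Ilk* was at 0.17 (adjusted p = 0.428 by limma).

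The start regions of the 3 genes that fell are shown because they share a direction in mesangial cells. Each is the 250 bases before a RefSeq gene start (GRCm38.p6), read 5′ to 3′ on the gene's strand: *Itga4* at chr2:79255176-79255425 on the plus strand, *Itga3* at chr11:95076715-95076964 on the minus strand and *Itga8* at chr2:12301945-12302194 on the minus strand. Capitals mark GGGCGG, the GC box bound by Sp1, and CCGGAA, a core of ETS factor sites.
Itga4: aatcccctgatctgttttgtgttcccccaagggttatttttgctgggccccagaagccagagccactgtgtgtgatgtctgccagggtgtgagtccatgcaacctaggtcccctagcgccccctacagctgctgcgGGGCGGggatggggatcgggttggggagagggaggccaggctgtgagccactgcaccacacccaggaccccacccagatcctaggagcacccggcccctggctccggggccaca
Itga3: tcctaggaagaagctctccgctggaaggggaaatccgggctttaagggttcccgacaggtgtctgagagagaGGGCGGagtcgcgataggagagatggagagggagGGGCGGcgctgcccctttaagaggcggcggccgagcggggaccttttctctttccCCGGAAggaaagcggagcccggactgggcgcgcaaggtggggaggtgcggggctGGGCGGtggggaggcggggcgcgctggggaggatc
Itga8: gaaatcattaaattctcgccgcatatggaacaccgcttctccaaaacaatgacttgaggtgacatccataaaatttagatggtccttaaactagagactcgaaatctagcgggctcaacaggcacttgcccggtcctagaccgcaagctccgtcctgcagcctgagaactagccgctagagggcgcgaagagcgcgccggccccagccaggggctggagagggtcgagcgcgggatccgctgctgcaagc
On either strand, the *Itga4* window held 1 GC box, the *Itga3* window 3 and an ETS core, and the *Itga8* window no match, and a second start of *Itga3* is not shown. RefSeq windows were matched for 30 of the 44 genes, 36 windows in all, of which 50% held the GC box and 11.1% the ETS core, beside 32.7% and 12% of all 32841 windows of this length. The Meis core TGACAG was in 19.4% of them against 15.9% of all, and TATAAA in 2.78% against 12.4%. A match is a description of letters only.

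The ligands of these receptors were counted next, with the other genes of the pathway, from lists drawn up for this purpose. Of 35 integrin ligand genes, 24 were tested and 4 passed the adjusted p, all higher in mutant arrays, beside 2.92% of all clusters. With *Xist* signal as a covariate 1 of all clusters passed, so at most 1 of the adjusted calls in this paragraph was kept. At an unadjusted p under 0.05 and any fold there were 10 ligand genes, beside 21.7% of all clusters. *Thbs1*, thrombospondin-1, had 1096 ± 339 in arrays labelled mutant against 204 ± 59.2 in wild type arrays (SD, n = 3 each), a log2 change of 2.42 (SE 0.31, adjusted p = 0.0169). *Fn1*, fibronectin, had 449 ± 189 in arrays labelled mutant against 74.8 ± 13.5 in wild type arrays (SD, n = 3 each), a fitted log2 change of 2.49 (SE 0.35, adjusted p = 0.0235). Its wild type mean lies below the minimum of 100, so *Fn1* entered the test and the count of 4 through its mutant arrays. The size of that change is not exact. *Fbln5*, fibulin-5, an RGD protein of elastic fibres, had 352 ± 52.2 in arrays labelled mutant against 138 ± 6.99 in wild type arrays (SD, n = 3 each), a log2 change of 1.34 (SE 0.13, adjusted p = 0.00642). The fourth, *Icam1*, a ligand of leukocyte integrins, rose by less than 1.5-fold (log2 change 0.57, adjusted p = 0.0246). *Itga4* and *Itga8*, which fell in these arrays, both encode fibronectin-binding subunits. The *Fn1* call is set against near-background signals, so no contrast with them is drawn. Of 63 other adhesion complex genes, 50 were tested, 11 had an unadjusted p under 0.05 and 3 passed the adjusted p: *Pdlim5*, an actin-binding LIM protein, at 0.92 (adjusted p = 0.028), *Kank4*, a talin-binding protein, at -0.78 (adjusted p = 0.039) and *Itgb1bp1*, which binds the beta1 tail, at -0.53 (adjusted p = 0.028). Of 12 other matrix receptors, 11 of them on the array, 9 were tested and 0 passed by limma, with 1 at an unadjusted p under 0.05. It was *Bcam*, the laminin receptor Lutheran, which passed the screen as lower.

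In podocytes, the site of the slit diaphragm, no member passed the adjusted p, and 6 of 26 tested passed the screen, all as lower in arrays labelled mutant. None of the 26 was higher by the screen, and 10 had an unadjusted p under 0.05 at any fold, where 14.3% of all clusters did. By limma, 0.0578% of all clusters passed the adjusted p, 4.34% the screen as lower and 1.26% as higher. The 6 were 5 integrin subunits, *Itga4*, *Itga8*, *Itga6*, *Itgb8* and *Itga2*, and *Ptk2*. The median log2 fold change of the 26 genes was -0.17, beside -0.04 over all clusters, and 17 were below 0. Without overlap between groups, 10 of the 26 were lower and 6 higher, beside 14.3% and 6.97% of all clusters.

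*Itga4* had podocyte signals of 263, 114 and 76.4 in mutant arrays and 562, 353 and 442 in wild type arrays, a log2 change of -1.75 (SE 0.42, adjusted p = 0.167). *Itga8* had 724, 472 and 134 against 1153, 1152 and 869, a log2 change of -1.55 (SE 0.55, adjusted p = 0.277). *Itga6* had 157, 94.7 and 60.9 against 219.6, 252 and 220.3, a log2 change of -1.25 (SE 0.31, adjusted p = 0.177). In all 3 the groups did not overlap and mutant array C was lowest, as it was in the sums of mesangial and endothelial markers. In wild type arrays *Itga8* and *Itga4* were brighter in mesangial cells and *Itga6* in endothelial cells than in podocytes. The defining markers of those types were present in podocyte arrays: *Pdgfrb* had 434, 213 and 201 in mutant and 682, 551 and 482 in wild type arrays, and *Cdh5*, VE-cadherin, 391, 277 and 123 against 813, 929 and 696. *Pecam1* and the other endothelial markers stood at 100 or above in 5 to 8 of 10 genes in mutant and 9 to 10 of 10 in wild type podocyte arrays. All 10 endothelial markers were lower in the mutant podocyte arrays without overlap. Of the 9 mesangial markers 2 were, *Pdgfrb* and *Meis1*. In mutant array B the mesangial sum of 3887 lay above every wild type sum. *Rgs5*, at 1632 against 857 to 1010.4, and *Agtr1a*, at 941 against 645 to 849, were also above wild type there. The 5 markers of smooth muscle and juxtaglomerular cells summed to 2970.2, 2374 and 1022 in mutant and 783, 769 and 766 in wild type podocyte arrays. *Ren1*, renin, had 789, 691 and 467 against 228, 134 and 228. The part of these markers in the lower signals was not tested. *Itga1*, also brighter in mesangial than in podocyte wild type arrays, had 196, 148 and 66.3 against 336, 194 and 198 and did not pass (log2 change -0.92, adjusted p = 0.358).

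In mesangial and endothelial arrays *Itga2* was at most 70.2 and *Itgb8* at most 76.7 outside wild type mesangial array C. The part of other cell types in their podocyte signals was not tested. *Itgb8* had 597, 428 and 306 in mutant podocyte arrays and 967, 722 and 939.5 in wild type arrays, without overlap, a log2 change of -1.02 (SE 0.25, adjusted p = 0.173). *Itga2* had 239, 147 and 133 against 340.4, 224 and 290.3, a log2 change of -0.75 (SE 0.25, adjusted p = 0.259), and mutant array A lay above wild type array B. The 11 podocyte markers summed to 14352 to 17542 in mutant and 15985 to 18006 in wild type arrays, which overlapped. Among them *Ptpro*, a podocyte phosphatase, was lower without overlap, at 1706, 1167 and 2083 against 2903, 2249 and 2435, as was *Magi2*, while *Kirrel* was higher without overlap, at 319, 342 and 382 against 298, 279 and 316. The part of these markers in the *Itgb8* and *Itga2* values was not tested. *Ptk2*, FAK, the kinase that signals from new adhesions, had 187, 166 and 168 against 307, 268 and 248, a log2 change of -0.66 (SE 0.13, adjusted p = 0.143), and in wild type arrays it was brighter in both other cell types. The podocyte laminin receptor *Itga3* had 557, 369.3 and 546 against 634, 600.0 and 673, no overlap and no call (log2 change -0.40, adjusted p = 0.372), and *Itgb1* had 2471, 2454 and 2316 against 2570.3, 2512 and 2619 (log2 change -0.09, adjusted p = 0.745). *Itgb5* at -0.34 and *Itgav* at -0.20, the other podocyte-high subunits, did not pass on the log2 scale (adjusted p = 0.33 and 0.501).

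**Figure D3:**
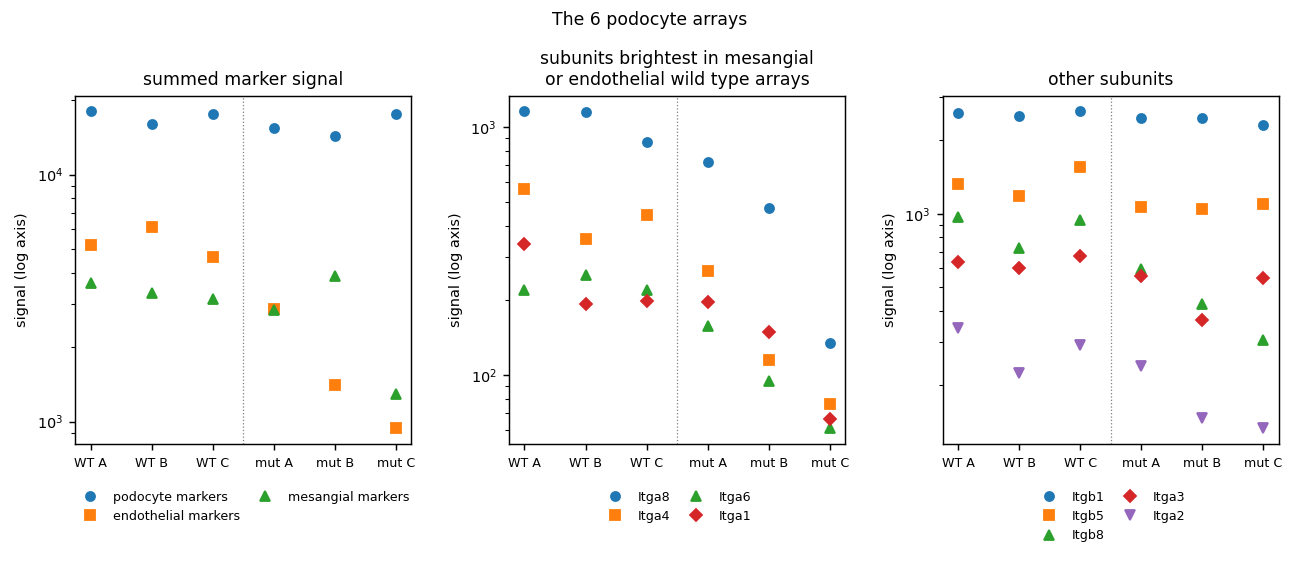
The 6 podocyte arrays, 3 wild type and 3 mutant, on log axes that differ between panels: summed signal of podocyte, endothelial and mesangial markers (left), 4 subunits brighter in mesangial or endothelial than in podocyte wild type arrays (middle) and 5 other subunits (right). Mutant array C is lowest for *Itga8*, at 134, and for both marker sums of other cell types, while *Itgb1* stays between 2316 and 2619. *Itgb1*, shown at the right, also had higher signals in mesangial than in podocyte wild type arrays, without being called.

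The podocyte counts depended on the arrays: without mutant array A, the screen called 10 members and the adjusted p 4, *Itga4*, *Itga6*, *Itga9* and *Itgb8*. Mutant podocyte arrays correlated less with each other (r from 0.9666 to 0.9712) than the arrays of any other group did (0.9797 or above). The part of this spread in the lower podocyte signals was not tested. Calls over all clusters then went from 679 to 1235 by the screen and from 7 to 344 by adjusted p. Without wild type array A the screen called 3 members and 575 clusters. Leaving out arrays in turn moved the *Itga8* log2 change between -2.06 and -0.84, and *Itga8* did not pass the screen without wild type array A or B. *Itga2* ranged from -1.01 to -0.59 and did not pass without mutant array B or C or wild type array A or C. *Ptk2* did not pass without wild type array A. Without mutant array C, lowest in the summed mesangial and endothelial markers, the screen called 5 of the members and 718 of all clusters, and the adjusted p 0 of either. Of all clusters that passed the screen, 22.5% were higher as deposited and 33.1% after a further quantile normalization, under which 5 members were lower, without *Ptk2*, and *Lims2* was higher. With all 18 arrays in 1 fit, 5 members passed the adjusted p, *Itga4*, *Ptk2*, *Itga8*, *Itgb8* and *Itga2*, along with 837 of all clusters. The pathway lists had 0 adjusted calls in podocytes by limma, with an unadjusted p under 0.05 for 3 of 25 ligand genes, 15 of 51 other adhesion genes and 3 of 9 other matrix receptors, beside 14.3% of all clusters. By the screen, 1 of 25 ligand genes tested was higher and 0 lower, beside 1.26% and 4.34% of all clusters, 4 of 51 other adhesion genes higher (*Nexn*, *Actn1*, *Tes* and *Sorbs3*, named after their values were seen) and 2 lower, and 1 of 9 other matrix receptors lower (*Cd36*, which endothelial cells also express).

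In endothelial cells the members that passed the screen were higher in arrays labelled mutant: 3 of 24 tested members passed it, 0 were lower, and 1, *Itga1*, passed the adjusted p. Over all clusters 2.96% were called higher, 0.865% lower and 1.29% by adjusted p, so the comparison leaned upwards over all clusters too. *Itga1* and *Itgb3* lay below 100 in all 3 wild type arrays and entered the test through their mutant arrays alone. Their calls in this count are therefore set against near-background signals. Without overlap between groups, 9 of the 24 were higher and 0 lower, beside 17.7% and 7.34% of all clusters. Of the 24, 20 had a log2 fold change above 0, with a median of 0.26, beside 64.9% and 0.07 over all clusters. This lean moved with the scaling: of all screen calls 77.4% were higher as deposited, 87.8% with array medians centred and 65.4% after a further quantile normalization, where 16 of the 24 members were above 0 with a median of 0.14, and *Itga1*, *Vcl* and *Itgb3* passed the screen under each.

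*Itga1*, the collagen and laminin receptor alpha1, had endothelial signals of 179, 177 and 216 in arrays labelled mutant and 93.2, 64.6 and 70.9 in wild type arrays. The groups did not overlap, and *Itga1* passed as higher, with a fitted log2 change of 1.34 (SE 0.15, adjusted p = 0.00834). All 3 wild type values lie below the minimum of 100, so the gene entered the test through its mutant arrays alone and the fitted change is set against near-background signals. The mutant arrays averaged 1.90 times the minimum (geometric mean). In these arrays the 9 mesangial markers summed to 665 to 726 in mutant and 707 to 749.9 in wild type endothelial arrays, with *Meis1* the 1 gene of 9 at 100 or above, and *Pdgfrb* had 51.2, 52.4 and 55.4 against 65, 53.2 and 58.7. The 10 endothelial markers summed to 18209 to 19054 in mutant and 16275 to 18105 in wild type arrays, without overlap, with wild type array C lowest. Of the 10, *Cdh5*, *Tie1*, *Esam* and *Egfl7* were higher in mutant arrays without overlap, *Cdh5* at 3043, 3033 and 2914 against 2791, 2583 and 2186, and 0 were lower. *Itga8* and *Itga4*, the mesangial subunits, were below 100 in all 6 endothelial arrays. The part of the markers in the *Itga1* signal was not tested. The adjusted p of *Itga1* was 0.0516 without wild type array C, under 0.05 with any other array left out, and 0.0575 with *Xist* signal as a covariate, at a log2 fold change of 1.52.

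*Vcl* had 515, 381 and 414 against 309.9, 275 and 191 in endothelial arrays, without overlap, a log2 change of 0.77 (SE 0.19, adjusted p = 0.11), and did not pass the screen without wild type array C. *Itgb3*, which pairs with alphav in endothelium and with alphaIIb in platelets, had 201, 100.2 and 128 against 88.1, 75.9 and 80.0, without overlap, and did not pass the screen without mutant array A, its highest array. All 3 wild type values lie below 100, so it too entered the test through its mutant arrays alone, and the size of the fitted log2 change of 0.76 (SE 0.23, adjusted p = 0.162) is not exact. The 6 platelet markers summed to 351 to 393 in mutant and 382 to 402 in wild type arrays, with *Itga2b* under 100. The 14 leukocyte markers summed to 879.7 to 1592 against 834 to 1048, highest in mutant array A, with 1 to 5 of 14 at 100 or above in mutant arrays and 1 in wild type arrays. Among them *Tyrobp* had 475, 274 and 151 against 108, 179 and 201, with overlapping groups. Without overlap, 2 of the 14 were higher in mutant arrays (*Laptm5* and *Adgre1*) and 2 lower (*Cd3e* and *Cd79a*), all below 100. The leukocyte partner *Itgb2* stayed below 100, and the part of these markers in the *Itgb3* and *Vcl* values was not tested. Scaffolds pointed the same way without passing: *Bcar1* had 238, 228 and 227 against 194, 185 and 159 (log2 change 0.37, adjusted p = 0.133) and *Pxn* 201, 158 and 165 against 136, 131 and 136 (log2 change 0.36, adjusted p = 0.164). *Itga6*, the endothelial laminin receptor, was 1 of 4 members below 0, at -0.31 (adjusted p = 0.251) with overlapping groups, and *Itgb1* had 1898, 2010.1 and 1981 against 2175, 2072 and 1777 (log2 change -0.03, adjusted p = 0.899). *Itga3* had 388, 266 and 284 against 275, 229 and 212, overlapping at mutant array B and wild type array A (log2 change 0.38, adjusted p = 0.27).

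The pathway lists had 0 adjusted calls in endothelial cells by limma, with an unadjusted p under 0.05 for 7 of 21 ligand genes, 10 of 43 other adhesion genes and 3 of 5 other matrix receptors, beside 18.5% of all clusters. By the screen 4 of 21 ligand genes tested were higher, *Fn1*, *Col4a1*, *Col4a2* and *Vcam1*, and 0 lower, beside 2.96% and 0.865% of all clusters, with 2 of 43 other adhesion genes higher (*Actn1* and *Svil*) and 1 of 5 other matrix receptors lower (*Cd36*), all named after their values were seen. *Col4a1*, a chain of basement membrane collagen that alpha1 and alpha2 integrins bind, had 373.9 ± 48.8 in arrays labelled mutant against 243 ± 38.1 in wild type arrays (SD, n = 3 each), with a log2 fold change of 0.63 and an adjusted p of 0.0855.

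**Figure D4:**
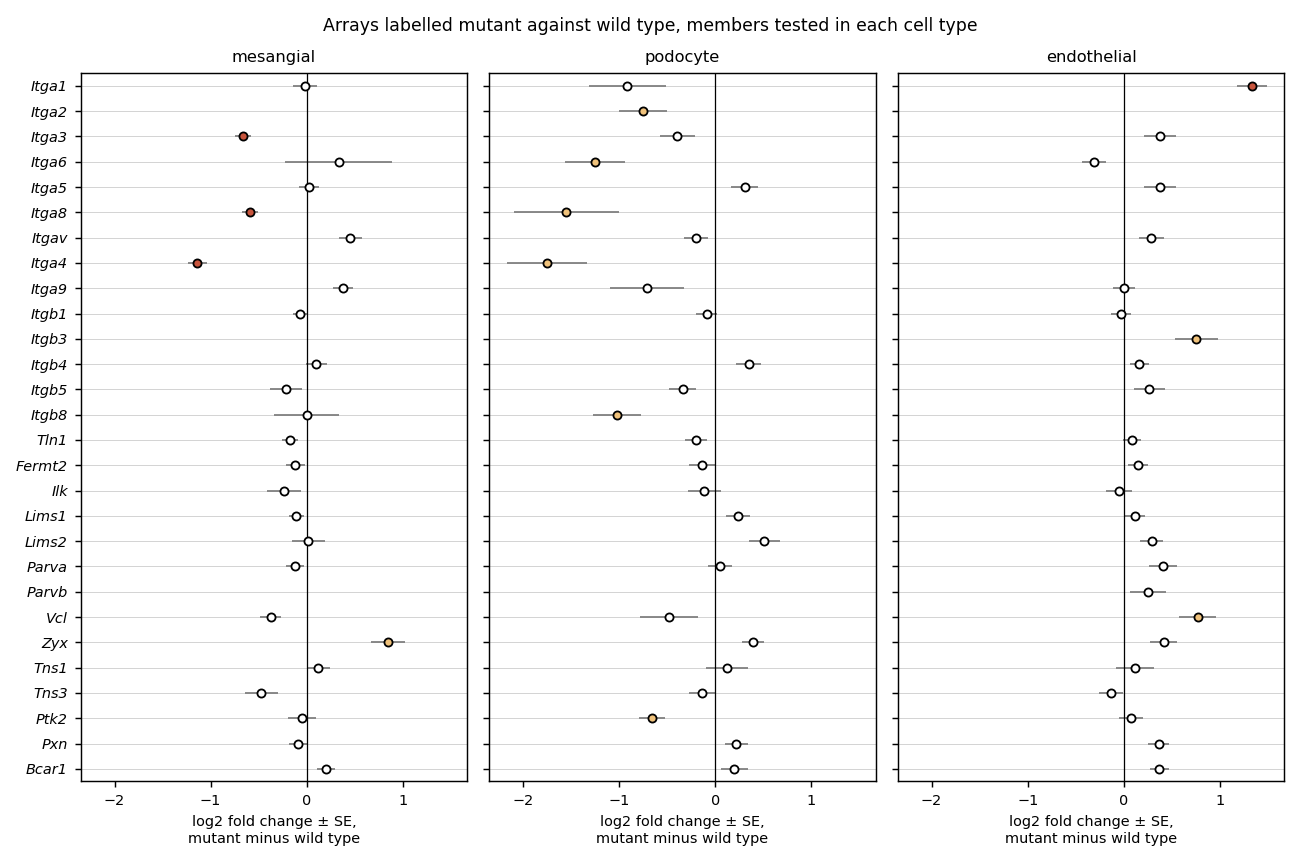
Log2 fold changes of arrays labelled mutant against wild type (points) with standard errors from limma (bars), for the members tested in each cell type; genes with no point were under 100 in all 6 arrays. Red points have an adjusted p under 0.05 (*Itga4*, *Itga3* and *Itga8* in mesangial cells, *Itga1* in endothelial cells), tan points passed the screen alone, and white points passed neither.

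Whether a genotype difference itself differs between cell types was tested as an interaction over all 18 arrays. *Itga3* differed between endothelial and mesangial cells: its log2 fold change was 0.38 in endothelial and -0.66 in mesangial cells, an interaction of 1.04 (SE 0.23, adjusted p = 0.0363), the 1 call among 28 members, against 1.07% of all clusters. *Itga1* differed between endothelial cells and podocytes, at 1.34 and -0.92, an interaction of 2.25 (SE 0.42, adjusted p = 0.0237), again the 1 call, against 2.11%. Its endothelial term rests on wild type signals below 100. Between podocytes and mesangial cells 0 members were called by limma, against 0.717% of all clusters, and 9 of 28 had an unadjusted p under 0.05, against 12.0% of all clusters. The fall of *Itga4* in mesangial cells and its lower podocyte signal were therefore not shown to differ (interaction -0.61, SE 0.44, adjusted p = 0.632), and the same held for *Itga8* (interaction -0.96, SE 0.57, adjusted p = 0.532). Against endothelial cells *Itga4* and *Itga8* are not given, since both genotypes were below 100 in endothelial cells. The *Itga3* call was lost with 12 of the 18 arrays left out in turn, at adjusted p from 0.0108 to 0.111 over all 18, and the *Itga1* call with 4 of them, from 0.00157 to 0.065. The scaling moved these comparisons: between endothelial and mesangial cells 66.2% of all calls were positive as deposited, 82.5% with array medians centred and 53.6% after quantile normalization, which left *Itga3* uncalled, and between endothelial cells and podocytes 88.1%, 96.4% and 70.1%, with medians over all clusters of 0.11, 0.22 and 0.00302. Between podocytes and mesangial cells 28.9% of all calls were positive as deposited and 47.6% after quantile normalization. *Itgb1* was called in no pair, with interactions of -0.02, 0.04 and 0.06.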

How the data were processed

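Mesangial cells, podocytes and endothelial cells were profiled on 18 arrays, 3 for each cell type and genotype. RNA was amplified once with the Nugen Ovation Pico system. The authors deposited intensity values on a linear scale, made per the labels by RMA in Expression Console, for the MoGene ST 1.0 array with annotation release na32 on mm9. The series text speaks of Exon ST arrays and GeneBASE, neither of which is named by the header or the study's methods. The table also holds 18 columns of a second, normalized form of the arrays, which were not used. Array medians ran from 62.8 to 71.6 in signal, and the number of arrays limits precision.

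The log2 of the deposited intensity was fitted by limma 3.58.1 (lmFit, eBayes; R 4.3.3), as 6 arrays per genotype comparison and 18 arrays for cell types and interactions. A transcript cluster was tested if its signal reached 100 in at least 1 array of the fit. Adjusted p values are Benjamini-Hochberg over all clusters tested. The screen, an unadjusted p under 0.05 with a fold change over 1.5, takes its p limit from the study's methods, which do not say whether p was adjusted, and its fold limit from the study's gene selections. Where a gene had several clusters the brightest was used. P values rest on the spread between the 3 arrays within each group, pooled over the groups of a fit and moderated by limma over all clusters tested.

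The 44 genes and the pathway and marker lists were chosen with earlier results of these data known. A member was named with its full values if it passed a genotype threshold or an interaction, or was *Itga3*, *Itga8* or *Itgb1*, and the others with levels or ranges. Promoter windows are from RefSeq, on another build than the array annotation. The alternatives tried were the scaling, signal minimum, sample set, variance model, array weights, left-out arrays, other clusters of a gene and, added after seeing the data, *Xist* signal as a covariate. The scripts were tested on simulated data. RNA-seq was not analysed here.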

Additional observations from a re-analysis of the deposited data

Results flagged for a closer look

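The genotype difference of *Itga3* passed as different between endothelial and mesangial cells by the interaction test of limma over 18 arrays, with a difference between the log2 changes of 1.04 (adjusted p = 0.0363). That call was lost with 12 of the 18 arrays left out in turn, at adjusted p up to 0.111, and with no signal minimum or after quantile normalization. The genotype difference of *Itga1* passed as different between endothelial cells and podocytes, with a fitted difference of 2.25 (adjusted p = 0.0237). All 3 endothelial wild type values of *Itga1* lie below 100, so the size of that difference is not exact, and the call was lost with 4 arrays left out in turn, at adjusted p up to 0.065.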

How the results depend on the processing

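With 3 arrays a group, 1 array could decide a call. The adjusted calls among the members in mesangial cells were 3, and 6 with trended and robust variances (729 of all clusters, from 335) and 0 with the *Xist* covariate (1 of all clusters). In podocytes they were 0, and 5 with all 18 arrays in 1 fit (837 of all clusters, from 7). In endothelial cells 1 became 0 with the *Xist* covariate (28 of all clusters, from 146). Between mesangial and endothelial cells 10 calls became 16 when mutant arrays were compared. Over the alternative settings, left-out arrays apart, 2014 to 2432 of all clusters were called in that pair. In wild type arrays 1195 of all clusters were called higher and 996 lower. The single endothelial minus mesangial interaction became 0 with no signal minimum and 0 under quantile normalization, and 6 with array weights (906 of all clusters, from 145). The single endothelial minus podocyte interaction became 2 with a stricter minimum, 6 with medians centred (967 of all clusters, from 285) and 2 with array weights. Of the single genes compared between settings, signs changed for *Itgb1*, at 0.13 in podocytes by transcript cluster 10582843, and in endothelial cells at 0.043 with medians centred and 0.0049 with array weights, and for *Itga1*, at -0.61 for podocytes minus endothelial cells in mutant arrays. The other clusters of *Ilk*, *Itgb4* and *Tns1* were not among those comparisons. By cluster 10556005 *Ilk* was at 0.17 in mesangial cells and 0.12 in podocytes, where its brightest cluster gave -0.24 and -0.11. Clusters of *Itgb4* in endothelial cells and of *Tns1* in mesangial and endothelial cells also differed in sign. None of these had an adjusted p under 0.05 by limma. With each array left out in turn, adjusted calls ranged from 1 to 3 in mesangial cells, 0 to 4 in podocytes and 0 to 2 in endothelial cells (50 to 304, 0 to 344 and 49 to 253 of all clusters). Podocyte screen calls ranged from 3 to 10 (575 to 1235 of all clusters), and endothelial *Itgb1* from -0.11 to 0.032. Interactions ranged from 0 to 2 for podocyte minus mesangial (44 to 423 of all clusters) and 0 to 3 for endothelial minus mesangial (85 to 251). For endothelial minus podocyte they ranged from 0 to 8 (30 to 1865 of all clusters). The highest podocyte counts, and the 3 and 8 interactions, came without podocyte mutant array A, the 2 podocyte minus mesangial interactions without mesangial wild type array C, and the 2 endothelial calls, *Itga1* and *Itga5*, without endothelial mutant array B. The causes were not tested. Over 479 comparisons of single genes between settings, left-out arrays apart, 12 lost a call (by the screen where the gene had passed only that) and 4 changed sign. In 9 a gene gained the adjusted p: *Zyx* in mesangial cells under 4 settings and 5 podocyte members with all 18 arrays in 1 fit. No paired analysis was possible because the columns carry no replicate number shared between groups.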

Other observations

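The ligands of these integrins also differed between wild type cell types, by limma at an adjusted p under 0.05 with a fold change over 1.5, and the genes named here were chosen after their values were seen. Of 28 ligand genes tested, 5 were higher and 9 lower in podocytes than in mesangial cells, 8 were higher and 6 lower in podocytes than in endothelial cells, and 10 were higher and 5 lower in mesangial than in endothelial cells. Over all clusters the shares called higher and lower were 5.49% and 8.33%, 9.15% and 10.8%, and 8.84% and 7.37% in the same order. *Npnt*, nephronectin, a ligand of alpha8beta1, was higher in podocytes than in mesangial cells by a log2 difference of 2.77 and than in endothelial cells by 3.97, and higher in mesangial than in endothelial cells by 1.20. *Vcam1*, a ligand of alpha4beta1, was higher in mesangial than in endothelial cells by 2.39, with a podocyte minus mesangial difference of -2.58. The basement membrane collagens split by chain: *Col4a3* and *Col4a4* were higher in podocytes than in mesangial cells by 2.23 and 1.90, while *Col4a1* and *Col4a2* had podocyte minus mesangial differences of -0.96 and -1.02. Of the 52 other adhesion complex genes tested, 5 were higher and 12 lower in podocytes than in mesangial cells, 10 and 12 against endothelial cells, and 14 higher and 11 lower in mesangial than in endothelial cells. Of the 10 other matrix receptors tested, 4 were higher and 2 lower in podocytes than in mesangial cells, 6 and 1 against endothelial cells, and 6 higher and 1 lower in mesangial than in endothelial cells.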
